A study of Mus musculus with 36 samples.

Results

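The nucleus accumbens (NAC) was set against the ventral tegmental area (VTA) in the vehicle arm of a mouse array series. All samples labelled Vehicle NAC 1 to 5 and Vehicle VTA 1 to 5 were taken, which are 10 of the 36 arrays. Both groups were male mice of strain C57B1/6J, 20 to 26 g in weight, with no transgene or deletion named in the labels, and both received saline only. They had gone through conditioned place preference, in which a compartment is paired with an injection. Injections ran from day 3 to day 10, the test followed on day 11, and brains were removed straight after it, 24 h after the last injection. The rest of the series is 10 NAC and VTA arrays of mice given modafinil at 65 mg per kg, and 16 prefrontal cortex arrays of both treatments, which were not analysed here. The labels name no age.

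Tissue was taken with a punch of 1 mm from slices of 100 µm, so an array reads every cell type under the punch. RNA of 2 pieces was pooled where its integrity number was above 7, and 5 samples of the series stayed unpooled; the labels do not say which. The labels also do not say that the 5 arrays of a group are 5 separate mice, so p-values here measure the spread between these samples, which may be technical. In bulk tissue, fewer cells of a type and less RNA per cell cannot be told apart, and this holds for every difference below.

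The NAC is the ventral part of the striatum. Most of its neurons are GABA-releasing spiny projection neurons, which carry either the D1 or the D2 dopamine receptor and receive dopamine from the midbrain and glutamate from cortex, hippocampus, amygdala and thalamus. The VTA lies in the ventral midbrain. Its dopamine neurons project to the NAC and share the region with glutamate and GABA neurons, and red nucleus, substantia nigra, mammillary and hypothalamic tissue lie close by.

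Each of 45101 probe sets of an Affymetrix mouse genome array reads part of a transcript, and values are expression levels from robust multi-array averaging (RMA) on the log2 scale, so a difference of 1 is a 2-fold difference. The median probe set averaged 6.86 in NAC and 6.79 in VTA, and the 5th percentile lay at 3.10 and 3.06. A value near that percentile is the dim end of the array, where a fold difference is compressed, and no probe set's level was set against that of another. A gene was read from its brightest probe set, and the median over its probe sets is given too where it ended a call or moved a value printed here by over 1.5 times. It was called higher or lower in NAC where limma's adjusted p over 45037 probe sets was under 0.05 and the difference of means was at least 1. Of all probe sets 4.00% (1800) were called higher and 3.00% (1353) lower, and without the limit on size 30.6% and 23.9%. Read as genes, 3.47% of 18193 (632) were called higher and 3.69% (671) lower, against which each family below is read. At any size, that is without the limit on size, 25.7% of genes were higher and 28.3% lower. Of 1053 family and marker genes with no call, 67 were called on a dimmer probe set, so a family count holds for the brightest probe sets only. The 5 NAC and the 5 VTA values did not overlap for 7281 of the 18193 genes. The first principal component held 75.99% of the variance and separated the regions, and arrays correlated with their own group at 0.989 to 0.995 on average.

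The 4 genes named as markers matched the labels on every array. Crym, a thyroid hormone binding protein enriched in striatum, read 10.94, 10.27, 11.11, 11.18 and 11.95 in NAC arrays 1 to 5, against 4.30, 4.41, 4.23, 4.22 and 4.24 in VTA arrays 1 to 5. Gpr6, an orphan receptor of striatal neurons that project to the pallidum, read 10.44, 9.73, 10.66, 10.84 and 11.19 in NAC arrays 1 to 5, against 6.01, 4.99, 6.03, 5.57 and 5.51 in VTA arrays 1 to 5. No VTA array came near the lowest NAC array for either gene.

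Slc6a3, the dopamine transporter, read 5.66, 5.93, 5.57, 5.83 and 5.79 in NAC arrays 1 to 5, against 12.43, 11.14, 11.07, 9.71 and 10.67 in VTA arrays 1 to 5. Ret, the signalling receptor for the growth factor GDNF, read 5.89, 5.76, 5.98, 5.93 and 5.77 in NAC arrays 1 to 5, against 11.59, 10.79, 10.55, 9.78 and 10.32 in VTA arrays 1 to 5. The NAC values spanned 0.36 and 0.22, while the VTA values spanned 2.72 and 1.81, with array 1 highest and array 4 lowest for both. The same array order at the extremes, 1 high and 4 low, held for Slc18a2, Th, Ddc, Gch1, En1, En2 and Chrna6.

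**Figure D1:**
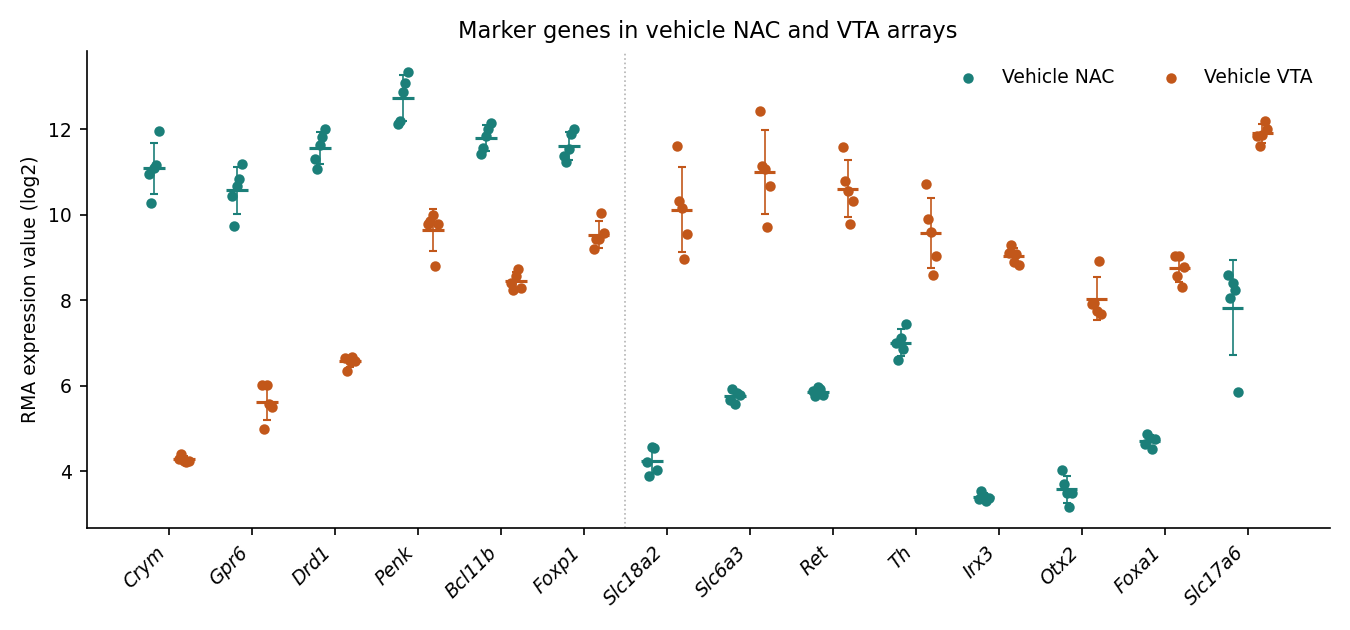
RMA values (log2) of 14 genes in the 5 vehicle NAC arrays (left of each pair) and the 5 vehicle VTA arrays (right); bars are means and SDs, and each point is 1 array, in array order. The 6 genes left of the dotted line were higher in every NAC array than in any VTA array, and the 8 to its right lower in every NAC array; the dopamine genes spread more within VTA than within NAC.

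The largest difference downward in NAC was that of a gene of dopamine handling. Slc18a2, which loads monoamines into vesicles, read 4.22, 3.90, 4.57, 4.54 and 4.02 in NAC arrays 1 to 5, against 11.60, 10.33, 10.16, 8.96 and 9.55 in VTA arrays 1 to 5. The difference was −5.87 (SE 0.38, adjusted p = 1.15e-07), a 58.6-fold lower level in NAC. Th, which catalyses the first and slowest step towards dopamine, read 7.00, 6.60, 7.13, 6.86 and 7.44 in NAC arrays 1 to 5, against 10.72, 9.91, 9.60, 8.59 and 9.04 in VTA arrays 1 to 5, a difference of −2.56 (SE 0.32, adjusted p = 2.94e-05). Ddc, which makes dopamine from L-DOPA, differed by −2.81 (SE 0.32, adjusted p = 1.26e-05), Gch1, which supplies the cofactor of Th, by −2.18 (SE 0.34, adjusted p = 0.000174), and Aldh1a1, an aldehyde dehydrogenase of a dopamine neuron subset, by −2.62 (SE 0.23, adjusted p = 1.45e-06). Over its probe sets the median difference of Ddc was −1.72. Of 20 midbrain dopamine neuron markers, 13 were called lower in NAC and 1, Drd2, higher. Of 17 transmitter enzymes, 5 were lower (Ddc, Aldh1a1, Th, Gch1 and Ache) and 0 higher; on a dimmer probe set Hdc, the histamine-making enzyme, was also lower (−2.63). The serotonin genes Slc6a4 and Tph2 averaged 5.61 ± 0.32 and 3.45 ± 0.23 in NAC and 5.28 ± 0.16 and 3.58 ± 0.34 in VTA (SD, n = 5), and neither was called. Both Tph2 means lay between the 5th and the 10th percentile, towards the dim end, where a fold difference is compressed.

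Th and Slc18a2 were the genes of this group with a CRE (TGACGTCA, a site read by CREB family factors) in the RefSeq promoter window, 250 bases before to 50 after the start (GRCm38.p6). Sst, a neuropeptide gene called higher in NAC, holds the same letters. The 3 windows are shown because genes of both directions carry the motif; capitals mark it, and the window holds no second match in any of them. Th lies at chr7:142899946-142900245, minus strand, Slc18a2 at chr19:59260628-59260927, plus strand and Sst at chr16:23890795-23891094, minus strand, and the match begins at −45, −4 and −48 from the start.
Th: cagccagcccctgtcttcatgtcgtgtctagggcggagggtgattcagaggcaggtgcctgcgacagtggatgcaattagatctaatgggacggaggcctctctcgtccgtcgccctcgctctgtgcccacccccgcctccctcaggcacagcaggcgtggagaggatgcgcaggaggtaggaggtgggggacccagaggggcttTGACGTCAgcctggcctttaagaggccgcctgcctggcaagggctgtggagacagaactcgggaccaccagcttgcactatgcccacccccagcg
Slc18a2: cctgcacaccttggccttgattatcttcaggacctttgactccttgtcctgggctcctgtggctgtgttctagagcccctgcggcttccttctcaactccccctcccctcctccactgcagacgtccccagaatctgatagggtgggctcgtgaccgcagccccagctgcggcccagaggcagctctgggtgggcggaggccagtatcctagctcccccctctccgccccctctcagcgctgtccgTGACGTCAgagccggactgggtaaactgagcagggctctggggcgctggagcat
Sst: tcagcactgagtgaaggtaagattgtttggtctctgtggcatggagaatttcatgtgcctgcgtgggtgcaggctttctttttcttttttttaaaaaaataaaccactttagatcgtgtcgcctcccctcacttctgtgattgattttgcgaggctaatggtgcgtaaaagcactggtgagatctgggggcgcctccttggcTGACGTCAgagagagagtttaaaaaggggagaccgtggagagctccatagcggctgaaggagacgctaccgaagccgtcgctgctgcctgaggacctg
The motif, which reads the same on both strands, stood in 2.92% of the windows of 14452 measured genes, in 12 of 492 genes called higher in NAC (2.44%) and in 10 of 520 called lower (1.92%). A match is a description of the letters and not of a bound site.

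The vesicular glutamate transporter genes Slc17a6 and Slc17a7 went opposite ways. Slc17a6, the vesicular glutamate transporter of thalamus and midbrain, read 8.58, 8.05, 8.41, 8.24 and 5.87 in NAC arrays 1 to 5, against 11.84, 11.62, 11.86, 12.20 and 12.02 in VTA arrays 1 to 5. Its difference was −4.08 (SE 0.41, adjusted p = 5.24e-06), and NAC array 5 stood far below the other NAC arrays. Slc17a7, the transporter used by cortical neurons, read 7.84, 9.04, 8.07, 7.93 and 6.19 in NAC arrays 1 to 5, against 4.94, 5.06, 5.13, 5.86 and 5.00 in VTA arrays 1 to 5, and differed by 2.62 (SE 0.40, adjusted p = 0.000143). NAC array 5 was again lowest, and NAC array 2 highest, for this gene. Gad1 and Gad2, the enzymes that make GABA, were not called on their brightest probe sets. Gad2 differed by 0.99 (SE 0.30, adjusted p = 0.0143) and Gad1 by 0.97 (SE 0.39, adjusted p = 0.049), both with overlapping arrays; the dimmer of 2 Gad1 probe sets was called higher in NAC, at 1.08 (adjusted p = 0.0141). The adjusted p of the brighter was not under 0.05 in 12 alternative settings. Slc32a1, the vesicular GABA transporter, differed by 0.60 (95% interval 0.05 to 1.15, adjusted p = 0.0633), and Chat, the acetylcholine-making enzyme, by −0.26 (−0.60 to 0.07, adjusted p = 0.167). The median of Slc32a1 over its 4 probe sets was 0.26 (adjusted p = 0.0242), under the limit on size. For Gad1, Gad2 and Slc32a1 the lowest VTA value was that of array 4 and the highest that of array 2.

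Of 28 neuropeptide precursors, 8 were called higher in NAC and 5 lower. Penk, the precursor of enkephalins, read 12.12, 12.20, 12.87, 13.09 and 13.33 in NAC arrays 1 to 5, against 9.79, 9.85, 10.01, 8.80 and 9.77 in VTA arrays 1 to 5. Npy, a peptide of striatal and cortical interneurons, read 9.82, 10.43, 9.97, 10.21 and 9.80 in NAC arrays 1 to 5, against 6.85, 7.11, 6.58, 6.96 and 7.30 in VTA arrays 1 to 5. Pdyn, the dynorphin precursor of D1 neurons, read 9.32, 8.31, 9.33, 9.41 and 9.72 in NAC arrays 1 to 5, against 5.94, 5.52, 5.80, 7.42 and 6.35 in VTA arrays 1 to 5. All 3 separated the regions, by 3.08 (SE 0.27, adjusted p = 1.33e-06), 3.09 (SE 0.15, adjusted p = 1.14e-08) and 3.01 (SE 0.33, adjusted p = 1.08e-05). Tac1, the substance P precursor, was higher by 1.87, Vip, an interneuron peptide, by 2.24 and Sst by 1.30, and the Vip arrays overlapped. Cartpt and Crh complete the 8. Lower in NAC were Pmch, the melanin-concentrating hormone precursor of lateral hypothalamus, with 5.15, 5.37, 5.30, 4.87 and 5.08 in NAC arrays 1 to 5, against 8.21, 6.91, 9.68, 8.97 and 9.47 in VTA arrays 1 to 5, and Grp, a bombesin-like peptide, at −3.33. The Pmch values spanned 2.77 across VTA, with array 2 lowest. Adcyap1 (PACAP), Pnoc and Gal were the other 3.

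Among 270 receptor genes, 32 (11.9%) were called higher in NAC and 25 (9.26%) lower, and the median difference was 0.019 against −0.0089 over all genes. Drd1, the D1 dopamine receptor, read 11.30, 11.07, 11.64, 11.81 and 12.01 in NAC arrays 1 to 5, against 6.65, 6.35, 6.59, 6.68 and 6.58 in VTA arrays 1 to 5, a difference of 5.00 (SE 0.15, adjusted p = 3.6e-10). Drd2, which dopamine neurons also carry as an autoreceptor, read 9.11, 9.23, 9.19, 9.32 and 9.49 in NAC arrays 1 to 5, against 9.03, 8.31, 8.07, 7.09 and 7.89 in VTA arrays 1 to 5, and differed by 1.19 (SE 0.26, adjusted p = 0.00224). In the VTA it followed the transporter genes, highest in array 1 and lowest in array 4, and array 1 lay 0.08 below the lowest NAC array. Without VTA array 4 the Drd2 difference was 0.94, under the limit on size. Drd3 and Drd4 were not called, at 0.33 and 0.31. The muscarinic receptors Chrm1 and Chrm4, which couple to Gq and Gi, were higher by 1.81 (SE 0.08, adjusted p = 9.91e-09) and 1.33 (SE 0.09, adjusted p = 1.41e-07), while Chrm3 differed by 0.02 (95% interval −0.30 to 0.34). Of 15 nicotinic subunits, 0 were called higher and 2 lower. At any size 5 were higher and 6 lower, against 25.7% and 28.3% of all genes. Chrna6, a subunit of receptors on dopamine neurons, read 5.91, 5.93, 5.99, 5.87 and 6.33 in NAC arrays 1 to 5, against 9.71, 8.66, 8.71, 7.92 and 8.33 in VTA arrays 1 to 5, a difference of −2.66 (SE 0.25, adjusted p = 3.07e-06). Chrna3, a subunit abundant in the habenula, differed by −1.94 (SE 0.38, adjusted p = 0.000964); VTA array 4 read 8.85 and the other VTA arrays 6.42 to 7.29. Its median over probe sets was −1.32 (adjusted p = 0.0535).

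Of 4 opioid receptors, 2 were called higher in NAC and 0 lower. Oprk1, the kappa receptor for dynorphin, read 9.09, 8.62, 8.92, 9.22 and 9.18 in NAC arrays 1 to 5, against 7.83, 7.40, 7.11, 7.45 and 6.85 in VTA arrays 1 to 5, and differed by 1.68 (SE 0.17, adjusted p = 4.65e-06). The delta receptor Oprd1 was higher by 1.12 (SE 0.06, adjusted p = 1.9e-08). Oprm1, the mu receptor, differed by 0.47 and Oprl1, the nociceptin receptor, by −0.68, below the limit on size. Of 13 serotonin receptors, Htr1d, Htr1f and Htr6 were higher, by 1.85, 1.38 and 1.18, and Htr7, which raises cAMP, was lower, at −1.55 (SE 0.15, adjusted p = 3.14e-06). Adra2c, a noradrenaline receptor, was higher by 2.05 (SE 0.14, adjusted p = 1.84e-07) and Hrh3, a histamine receptor, by 1.03 (0.96 without VTA array 3). The median over probe sets was −0.96 for Htr7, under the limit on size, and 1.31 for Adra2c. Cnr1, the CB1 cannabinoid receptor, differed by 0.42 (95% interval 0.10 to 0.74) with overlapping arrays.

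Peptide receptors were the receptor family with the most calls, 5 higher and 9 lower of 55. Vipr1, a receptor for VIP and PACAP, read 7.37, 7.56, 7.37, 7.37 and 7.53 in NAC arrays 1 to 5, against 4.24, 4.66, 4.23, 4.33 and 4.50 in VTA arrays 1 to 5. Its groups lay 8.28-fold apart, with a span of 0.19 among NAC and 0.43 among VTA arrays; its median over probe sets was 1.91. Agtr2, an angiotensin II receptor, read 3.14, 2.90, 3.20, 3.05 and 3.10 in NAC arrays 1 to 5, against 6.64, 6.98, 6.52, 5.28 and 6.43 in VTA arrays 1 to 5, a difference of −3.29 (SE 0.24, adjusted p = 3.48e-07). Hcrtr1, the receptor for orexin A, read 4.04, 4.29, 4.00, 3.94 and 4.02 in NAC arrays 1 to 5, against 6.83, 7.31, 6.69, 6.29 and 6.80 in VTA arrays 1 to 5, a difference of −2.73 (SE 0.15, adjusted p = 3.2e-08). The NAC arrays of Agtr2 lay at the dim end of the scale. Cckar, a cholecystokinin receptor, and Ghsr, the ghrelin receptor, were lower, at −2.05 (SE 0.22, adjusted p = 8.94e-06) and −1.97 (SE 0.21, adjusted p = 8.17e-06); Ntsr1, Tacr3, Qrfpr, Avpr1a and Ntsr2 were the other 5. Mchr1, the receptor for the Pmch peptide, was higher in NAC by 1.42 (SE 0.10, adjusted p = 2.05e-07) while its ligand gene was lower there.

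Ionotropic receptors differed subunit by subunit. Gria2, which sets the calcium permeability of AMPA receptors, was higher by 1.31 (SE 0.11, adjusted p = 1.15e-06) and Gria3 by 1.29 (SE 0.12, adjusted p = 2.08e-06), while Gria1 and Gria4 differed by 0.82 and −0.61. Of the NMDA subunits, Grin2b read 10.04, 10.32, 10.20, 10.25 and 10.43 in NAC arrays 1 to 5, against 8.74, 8.88, 9.05, 9.16 and 9.01 in VTA arrays 1 to 5. Grin3a, a subunit that lowers calcium flow, read 7.50, 8.04, 7.52, 7.52 and 6.97 in NAC arrays 1 to 5, against 8.91, 8.80, 9.05, 9.61 and 9.15 in VTA arrays 1 to 5. The regions thus had opposite order for these 2 subunits, with differences of 1.28 (SE 0.09, adjusted p = 3.09e-07) and −1.59 (SE 0.18, adjusted p = 1.45e-05). Grm5 and Grm3 were higher by 1.76 and 1.25, and Grm8 lower, at −1.04 (−0.82 without NAC array 5 and −0.98 without VTA array 4). Gabrd, the delta subunit of extrasynaptic GABA-A receptors, read 9.11, 8.83, 9.11, 9.19 and 9.67 in NAC arrays 1 to 5, against 6.23, 5.48, 6.77, 5.84 and 7.08 in VTA arrays 1 to 5. It was higher by 2.90 (SE 0.27, adjusted p = 2.21e-06), with Gabra4, its partner in the striatum, at 1.46 (SE 0.19, adjusted p = 4.6e-05) and Gabrg3 at 1.21; the other 12 of 15 GABA-A subunits were not called, Gabra2 being higher (1.38) on 1 of its 5 probe sets. Glra1, a subunit of the inhibitory glycine receptor of brainstem and spinal cord, read 4.09, 4.04, 4.42, 4.83 and 4.00 in NAC arrays 1 to 5, against 8.78, 9.23, 8.87, 8.32 and 9.15 in VTA arrays 1 to 5. It was 24.2-fold lower in NAC, a difference of −4.60 (SE 0.19, adjusted p = 3.44e-09), and Glra3 was lower, at −1.79. All 5 glycine receptor genes had an adjusted p under 0.05 in that direction, against 28.3% of all genes. Medians over probe sets were 0.69 for Grin2b and −0.62 for Glra3, both under the limit on size, and 1.37 for Gabrd.

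**Figure D2:**
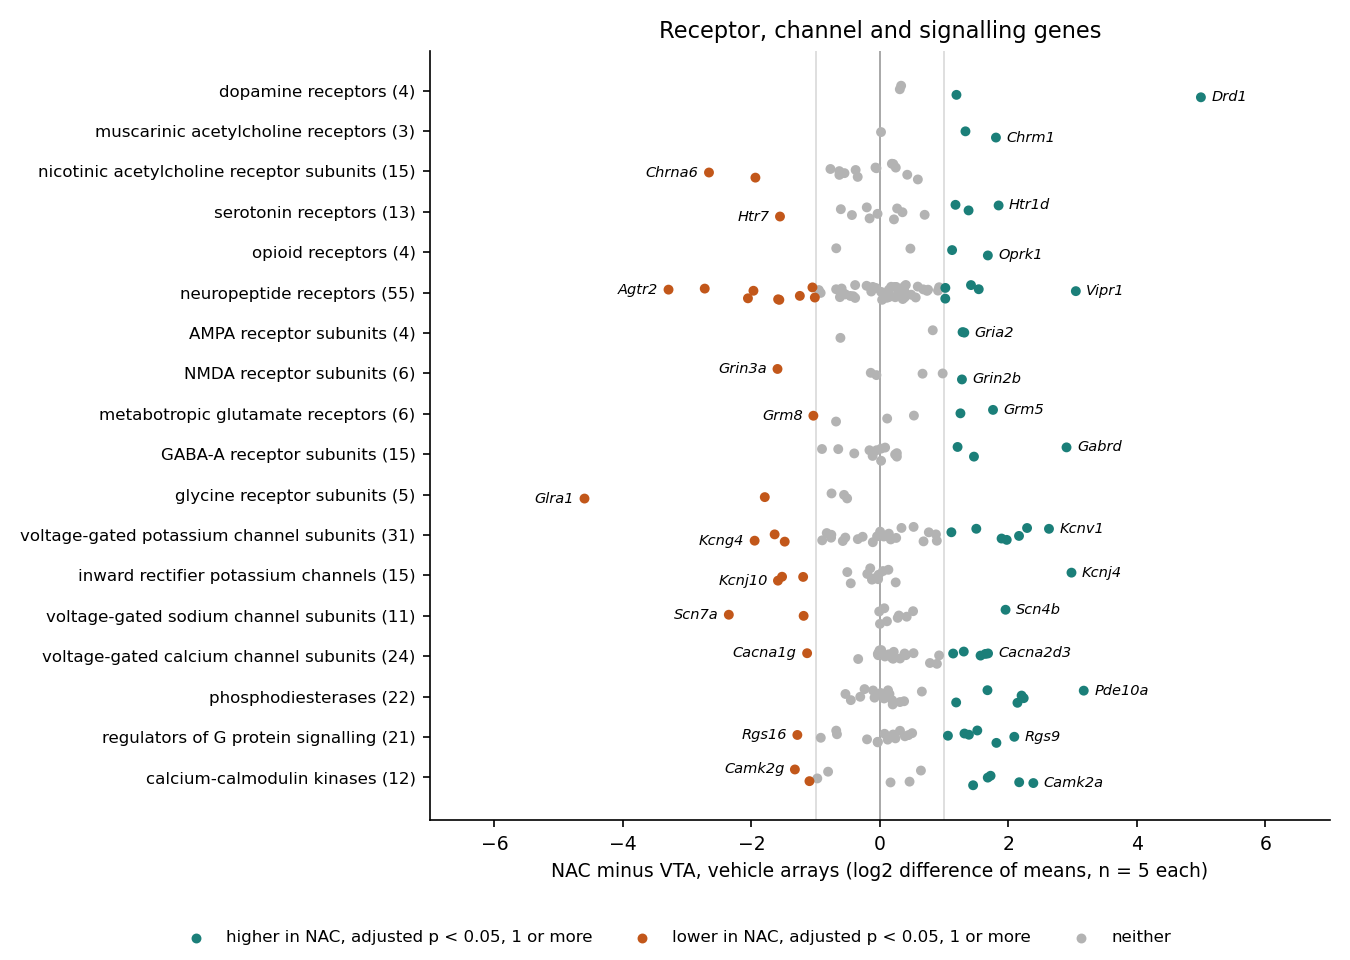
NAC minus VTA difference (log2, means of 5 arrays each) of every member read in 18 receptor, channel and signalling families, with the number of members in brackets; colours mark calls, grey lines stand at −1, 0 and 1, and the outermost called member on each side is named. Drd1 at 5.00 and Glra1 at −4.60 are the outermost points, and dopamine, muscarinic and opioid receptors and phosphodiesterases are among the families with no called member on the left.

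Of 183 channel genes, 19 (10.4%) were called higher and 13 (7.1%) lower. Kcnj4, an inward rectifier (Kir2.3) that holds spiny neurons at negative potential, read 8.99, 8.87, 9.05, 9.19 and 9.03 in NAC arrays 1 to 5, against 6.28, 6.09, 5.87, 6.12 and 5.86 in VTA arrays 1 to 5. The difference was 2.98 (SE 0.09, adjusted p = 3.6e-10). Kcnj10 and Kcnj16, whose channels buffer potassium in glia, were lower, at −1.59 (SE 0.08, adjusted p = 2.49e-08) and −1.52 (SE 0.12, adjusted p = 5.47e-07), beside 17 astrocyte markers, of which 7 were called lower and 1 higher. That list averaged 9.27 to 9.56 in NAC arrays and 9.90 to 10.35 in VTA arrays, and its part in these values was not tested. Among 31 voltage-gated potassium channel subunits 7 were higher and 3 lower. The first are led by Kcnv1 and Kcng1, silent subunits that modify Kv2 channels, at 2.63 (SE 0.11, adjusted p = 3.84e-09) and 2.29 (SE 0.19, adjusted p = 7.91e-07), with Kcna5 at 2.16 and Kcnf1 at 1.97. Lower were Kcng4 at −1.95 (SE 0.17, adjusted p = 1.52e-06), Kcns3 at −1.64 and Kcnc1, a fast Kv3 channel, at −1.48, the last in 1 of its 4 probe sets (median −0.07, not called). The median for Kcng1 was 1.11.

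Scn4b, the beta subunit behind resurgent sodium current, read 11.11, 10.49, 11.20, 11.44 and 11.93 in NAC arrays 1 to 5, against 9.36, 9.84, 9.60, 8.07 and 9.50 in VTA arrays 1 to 5, and differed by 1.96 (SE 0.32, adjusted p = 0.000244). Scn7a, a sodium-sensing channel, was lower, at −2.35 (SE 0.14, adjusted p = 7.24e-08) and Scn1a at −1.19. Of 24 calcium channel subunits, 5 were higher, with Cacna2d3 at 1.68, and Cacna1g, a T-type channel of thalamic relay neurons, was lower, at −1.13. The Cacna1g arrays overlapped, with 8.38 in NAC array 2 and 8.29 in VTA array 2. Ano3, a member of the anoctamin family, read 8.87, 8.59, 8.93, 9.13 and 9.41 in NAC arrays 1 to 5, against 5.63, 5.43, 5.97, 5.67 and 5.74 in VTA arrays 1 to 5. Ryr1, a calcium release channel of internal stores, read 8.81, 8.12, 8.78, 8.90 and 8.91 in NAC arrays 1 to 5, against 5.53, 5.41, 5.57, 5.52 and 5.52 in VTA arrays 1 to 5. Both separated the groups, by 3.30 (SE 0.14, adjusted p = 4.67e-09) and 3.20 (SE 0.13, adjusted p = 3.56e-09). No member was called among 7 HCN and cyclic nucleotide-gated channels or 8 calcium- and sodium-activated potassium channels, of which Kcnma1 was higher (1.47) on 1 of its 5 probe sets. Gjd2, the connexin of neuronal gap junctions, was lower, at −1.63 (SE 0.11, adjusted p = 1.26e-07). Medians over probe sets were under the limit on size for Scn1a (−0.81) and Gjd2 (−0.97).

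Second messenger genes had a larger share called higher than receptors, channels, transcription factors, transmitter or wiring genes: 32 of 139 were higher and 10 lower. The lists were chosen with earlier results of these data known, so the shares describe the lists and do not rank gene classes. Pde10a, the phosphodiesterase of spiny neurons that breaks down cAMP and cGMP, read 11.918, 12.004, 12.576, 12.642 and 12.859 in NAC arrays 1 to 5, against 9.340, 8.984, 9.137, 9.431 and 9.249 in VTA arrays 1 to 5, and differed by 3.17 (SE 0.17, adjusted p = 2.79e-08). Of 22 phosphodiesterases 6 were higher and 0 lower, the others being Pde2a (2.24), Pde7b (2.20), Pde1b (2.14), Pde1c and Pde1a; Pde4d was lower (−1.35) on the dimmer of its 2 probe sets. Adenylyl cyclases split: Adcy5, the striatal form, was higher by 1.52 (SE 0.19, adjusted p = 2.67e-05), and Adcy7 and Adcy8 lower, at −2.36 (SE 0.11, adjusted p = 8.55e-09) and −1.94 (SE 0.21, adjusted p = 9.99e-06). Gng7 and Gnal, subunits of the Golf protein through which D1 receptors act, were higher by 3.07 (SE 0.19, adjusted p = 7.11e-08) and 1.35 (SE 0.15, adjusted p = 9.03e-06). Rgs9, which shortens D2 receptor signals, was higher by 2.09 (SE 0.17, adjusted p = 9.93e-07), and of 21 regulators of G protein signalling 6 were higher and 1, Rgs16, lower. Rasgrp1, a Ras activator, read 11.37, 11.88, 11.90, 11.96 and 11.94 in NAC arrays 1 to 5, against 8.76, 7.24, 9.17, 8.93 and 9.16 in VTA arrays 1 to 5. It differed by 3.16 (SE 0.31, adjusted p = 3.87e-06), and the lowest VTA value was that of array 2. Among 12 calcium-calmodulin kinase genes 5 were higher and 2 lower; Camk2a was higher by 2.39 (SE 0.21, adjusted p = 1.61e-06) and Camk2g lower, at −1.32 (SE 0.15, adjusted p = 1e-05). Calb1 and Calb2, buffers of calcium, went opposite ways, at 1.34 and −2.81. Medians over probe sets were under the limit on size for Adcy5 (0.61) and Camk2g (−0.90), smaller for Pde2a (1.17) and Camk2a (1.59) and larger for Rgs9 (3.59).

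Transcription factors were called in both directions: of 408 read, 46 (11.3%) were called higher and 34 (8.33%) lower. Irx3, a factor of the diencephalon and brainstem, read 3.36, 3.54, 3.41, 3.30 and 3.37 in NAC arrays 1 to 5, against 9.11, 9.29, 8.89, 9.09 and 8.81 in VTA arrays 1 to 5. The difference was −5.64 (SE 0.09, adjusted p = 2.59e-12), the smallest adjusted p among the genes named. The other called Iroquois genes, Irx5, Irx2, Irx1 and Irx6, were lower too, the first 3 at −2.64, −2.17 and −1.99. Otx2, which specifies midbrain and persists in part of the VTA dopamine neurons, read 4.04, 3.70, 3.49, 3.17 and 3.49 in NAC arrays 1 to 5, against 7.91, 7.93, 7.75, 8.92 and 7.69 in VTA arrays 1 to 5. Its highest VTA value was thus that of array 4, where Slc6a3 and Th were lowest. Foxa1, a forkhead factor that maintains dopamine neurons, read 4.65, 4.86, 4.77, 4.51 and 4.74 in NAC arrays 1 to 5, against 9.05, 8.56, 9.04, 8.30 and 8.78 in VTA arrays 1 to 5. Its relative Foxa2 was lower, at −2.68 (SE 0.24, adjusted p = 1.82e-06). The engrailed genes En2 and En1 were lower, at −2.55 (SE 0.30, adjusted p = 1.65e-05) and −1.58 (SE 0.38, adjusted p = 0.00368), again highest in VTA array 1. Ebf3 and Nhlh2 were lower, at −4.14 (SE 0.12, adjusted p = 1.55e-10) and −4.70 (SE 0.35, adjusted p = 3.67e-07).

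The VTA values of some factors lower in NAC varied by array. Tcf7l2, a factor of thalamus and habenula, read 6.78, 7.07, 7.19, 6.97 and 6.68 in NAC arrays 1 to 5, against 9.29, 10.50, 9.23, 10.98 and 9.91 in VTA arrays 1 to 5. Gata3, a factor of midbrain GABA neurons, read 3.09, 3.19, 3.11, 3.56 and 3.00 in NAC arrays 1 to 5, against 6.69, 8.79, 4.81, 4.60 and 5.38 in VTA arrays 1 to 5. Pou4f1, a factor of habenula and red nucleus, read 3.65, 3.99, 3.93, 3.82 and 3.82 in NAC arrays 1 to 5, against 5.29, 6.23, 5.11, 9.10 and 5.00 in VTA arrays 1 to 5. VTA array 2 was the highest for Gata3, and array 4 for Tcf7l2 and, by 2.87 over the next array, Pou4f1. The median of Pou4f1 over its probe sets was −2.03 (adjusted p = 0.0545). Shox2 and Gbx2, thalamic factors, were highest in array 4 as well, at 8.30 and 8.31; without NAC array 2 and VTA array 4 the Gbx2 difference was −1.02, against −1.54 over all arrays.

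Among transcription factors higher in NAC, the cortical factor Tbr1 had the largest difference, 5.50 (SE 0.36, adjusted p = 1.34e-07). Neurod6, Lhx2, Neurod2, Emx2 and Emx1 were called higher too, at 3.33, 2.81, 1.83, 1.56 and 1.21, with medians over probe sets of 0.94 for Neurod2 and 0.66 for Emx1, under the limit on size. Of 6 Dlx genes, which direct GABA neurons of the forebrain, 4 were higher: Dlx6 by 2.94 (SE 0.27, adjusted p = 2.14e-06), Dlx1 by 2.42, Dlx5 by 2.35 and Dlx2 by 1.63, the Dlx1 arrays overlapping. Meis2, a TALE factor of spiny neurons, read 11.077, 10.996, 11.456, 11.574 and 11.789 in NAC arrays 1 to 5, against 7.432, 8.560, 7.778, 6.549 and 7.293 in VTA arrays 1 to 5. Isl1, a LIM factor of D1 neurons, read 9.08, 7.90, 9.03, 8.96 and 9.54 in NAC arrays 1 to 5, against 5.29, 4.22, 5.99, 4.83 and 5.78 in VTA arrays 1 to 5. Lhx8, a LIM factor of cholinergic and pallidal neurons, read 7.78, 6.20, 7.44, 7.37 and 8.27 in NAC arrays 1 to 5, against 2.96, 2.91, 2.84, 2.76 and 3.24 in VTA arrays 1 to 5. These 3 differed by 3.86 (SE 0.30, adjusted p = 4.96e-07), 3.68 (SE 0.34, adjusted p = 2.52e-06) and 4.47 (SE 0.29, adjusted p = 1.2e-07), and for Isl1 and Lhx8 the lowest NAC value was that of array 2. Bcl11b, needed for spiny neuron differentiation, read 11.43, 11.57, 11.84, 12.02 and 12.14 in NAC arrays 1 to 5, against 8.41, 8.23, 8.57, 8.73 and 8.29 in VTA arrays 1 to 5. Foxp1 was higher by 2.07 (SE 0.17, adjusted p = 9.19e-07) and called in each of its 8 probe sets. Rarb and Rxrg, receptors for retinoids, were higher by 2.56 (SE 0.22, adjusted p = 1.37e-06) and 1.74 (SE 0.09, adjusted p = 1.59e-08), and Six3, a forebrain homeobox factor, by 2.08 (SE 0.32, adjusted p = 0.000144). Medians over probe sets were 1.36 for Foxp1 and 0.35 for Six3, the second under the limit on size. Npas2, a clock partner, was higher by 2.78 (SE 0.09, adjusted p = 5.8e-10) and Klf5 by 2.95. Sp8 was called at 1.14 (SE 0.42, adjusted p = 0.0356), but its NAC arrays read 4.73 to 5.25 apart from 7.43 in array 2. Without NAC array 2 the difference was 0.67 (adjusted p = 0.0138), and in 6 alternative settings its adjusted p was not under 0.05.

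Several families had few or no calls, which is near the share over all genes (3.47% higher and 3.69% lower). At any size 3 of 19 Sox factors were higher and 6 lower, against 25.7% and 28.3% of all genes. None of these 19, of 12 Ets factors, 4 nuclear factor I genes or 6 CUT factors was called on its brightest probe set. On dimmer ones Sox11 was higher in 4 of its 6 probe sets (1.03 to 1.43), Etv5, an Ets factor, in 1 of 3 (1.26) and Onecut2, a CUT factor, in 1 of 3 (1.41), while Onecut1 was lower in 1 of 2 (−1.17). Of 33 Hox genes, which pattern hindbrain and spinal cord, 1 was called on its brightest probe set: Hoxc10, at 4.98 ± 0.18 in NAC and 3.90 ± 0.17 in VTA, both under the median probe set.

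**Figure D3:**
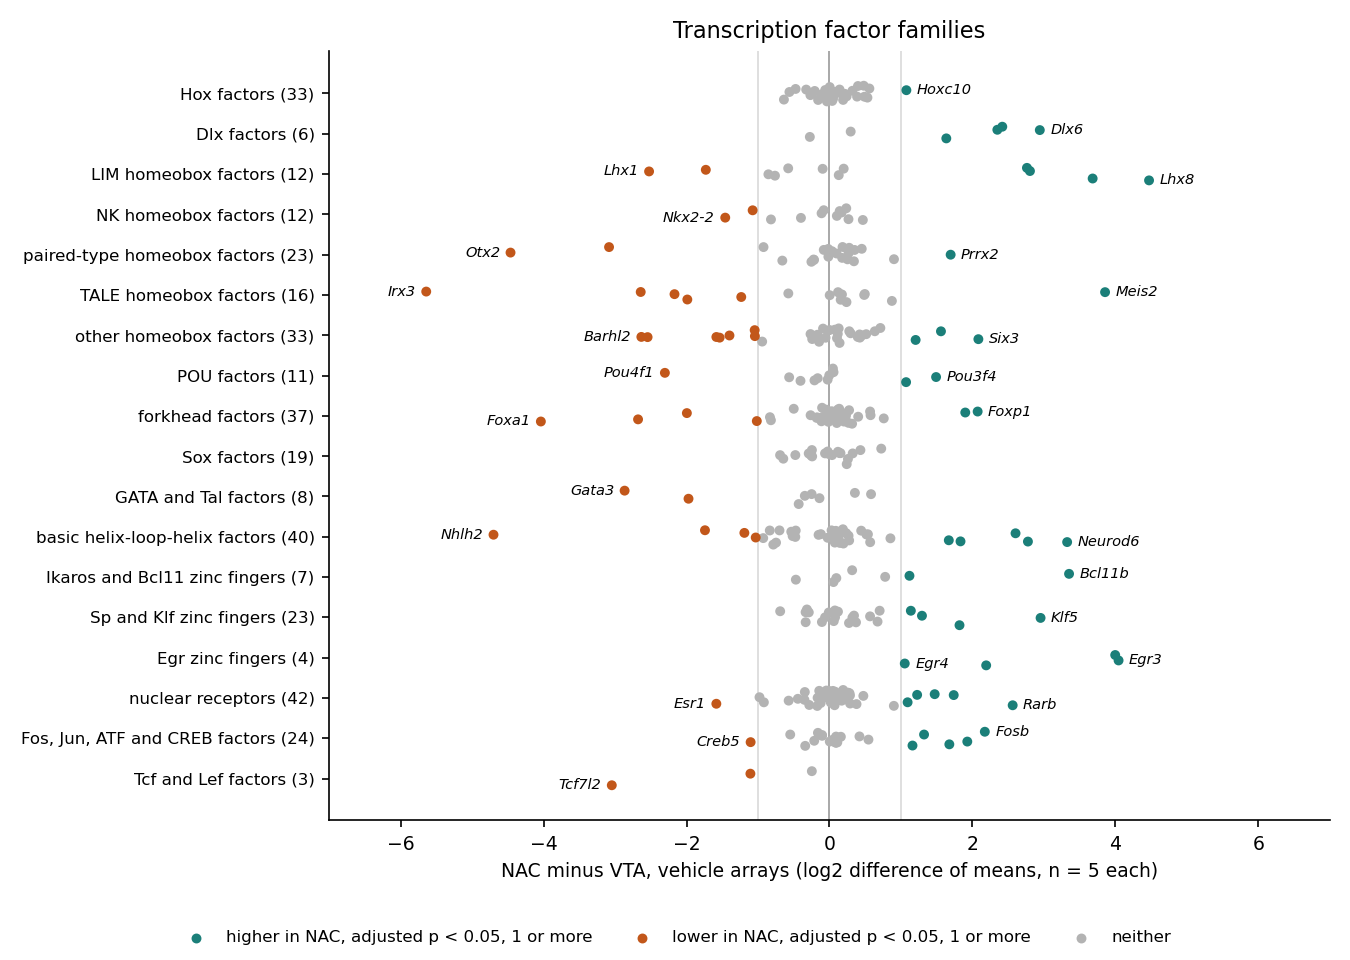
NAC minus VTA difference (log2, means of 5 arrays each) of every member read in 18 transcription factor families, with the number of members in brackets; colours and lines are as in the plot of receptors and channels, and each gene is read from its brightest probe set. Dlx and Egr genes have called members on the NAC side only, GATA and Tal and the Tcf and Lef genes on the VTA side only, and LIM and helix-loop-helix genes on both.

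Of 21 immediate early genes, which neurons switch on within minutes of firing, 14 were called higher in NAC and 0 lower. Egr2 read 8.55, 9.01, 8.19, 8.74 and 8.60 in NAC arrays 1 to 5, against 4.65, 4.55, 4.88, 4.47 and 4.56 in VTA arrays 1 to 5, Egr3 differed by 4.05 (SE 0.27, adjusted p = 1.67e-07), Egr1 by 2.19 (SE 0.19, adjusted p = 1.32e-06) and Egr4 by 1.05, so all 4 Egr genes were called; without NAC array 2 the Egr4 difference was 0.98, and the median of Egr3 over its probe sets was 2.13. Npas4, Fosb and Junb were higher by 2.60 (SE 0.13, adjusted p = 1.59e-08), 2.17 (SE 0.13, adjusted p = 7.37e-08) and 1.68 (SE 0.12, adjusted p = 2.9e-07), while Fos itself differed by 0.16 (95% interval −0.29 to 0.60). The mean level of the 21 genes was 9.01, 9.52, 9.06, 9.18 and 8.74 in NAC arrays 1 to 5, against 7.72, 7.68, 7.82, 7.85 and 7.81 in VTA arrays 1 to 5. NAC array 2 was highest and array 5 lowest, and the list of cortical markers had the same extremes; its part in this was not tested. Egr2 is shown because it was the only gene of the 16 in this list with a promoter window to hold a CArG box, the site of serum response factor. Exact matches stood in 1.58% of the windows of measured genes, in 15 of 492 genes called higher (3.05%) and in 9 of 520 called lower (1.73%). Sites outside the window or with other letters were not searched. The first listed of the Egr2 windows lies at chr10:67537316-67537615, plus strand, with the match, in capitals, from −72.
Egr2: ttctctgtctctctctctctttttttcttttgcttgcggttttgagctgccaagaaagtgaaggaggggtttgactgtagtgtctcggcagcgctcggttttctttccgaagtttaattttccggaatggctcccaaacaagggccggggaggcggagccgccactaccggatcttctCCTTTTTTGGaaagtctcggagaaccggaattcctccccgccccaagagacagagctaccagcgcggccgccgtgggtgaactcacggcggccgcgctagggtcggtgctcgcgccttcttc

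Genes of wiring and adhesion had 13 of 182 called higher and 20 lower. Cbln4, Cbln1 and Cbln2, secreted organisers of synapses, were lower, at −2.61 (SE 0.30, adjusted p = 1.37e-05), −2.25 (SE 0.31, adjusted p = 5.82e-05) and −1.51 (SE 0.43, adjusted p = 0.0102). The Cbln2 arrays overlapped. For Cbln1, VTA array 4 was highest, with 6.79, 7.78, 6.78, 7.15 and 6.73 in NAC arrays 1 to 5, against 9.33, 8.86, 8.38, 10.16 and 9.78 in VTA arrays 1 to 5. Plxnd1, a semaphorin receptor of direct pathway neurons, was higher by 2.35 (SE 0.15, adjusted p = 1.2e-07), and Sema3a by 1.77. Wnt2 was higher by 3.04 (SE 0.22, adjusted p = 3e-07), and Wnt5a, which acts in midbrain dopamine neuron development, lower, at −1.97 (SE 0.14, adjusted p = 2.02e-07) together with the Wnt inhibitors Sfrp2 (−1.98) and Sfrp5 (−1.68). Of 21 ephrins and Eph receptors 1, Efnb2, was called, at 1.67; Epha4 and Epha7 were higher on dimmer probe sets (1.78 in 1 of 5 and 1.05 to 1.23 in 2 of 4). Medians over probe sets were −0.70 for Wnt5a, under the limit on size, and −1.11 for Sfrp5.

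Lists of cell type and neighbouring tissue markers were read in each array. The 8 olfactory tubercle, septal and pallidal markers averaged 7.83 to 8.24 in NAC and 7.66 to 8.68 in VTA arrays, highest in VTA array 4. In that list Wfs1 was called higher in NAC and Zic2 lower. Of 18 pan-striatal projection neuron markers 15 were called higher in NAC and 0 lower, with 6 of 7 direct and 4 of 4 indirect pathway markers. The indirect list also holds Adora2a, Sp9 and Gpr52, which were not read. Of its called members, Upb1, at 1.01, fell under the limit on size without NAC array 1, 3 or 5. Drd2 did so without VTA array 4. Among 9 striatal interneuron markers, Lhx8, Npy and Sst were called higher and Pvalb lower, at −1.16 (adjusted p = 0.0155), and 5 were not called. Of 12 cortical excitatory neuron markers 7 were higher and 0 lower. Tbr1, a cortical factor, read 8.61, 9.60, 8.57, 8.71 and 6.89 in NAC arrays 1 to 5, against 2.85, 3.05, 2.96, 3.01 and 3.01 in VTA arrays 1 to 5. Neurod6 read 8.02, 9.34, 7.51, 8.12 and 4.97 in NAC arrays 1 to 5, against 5.39, 3.49, 3.58, 4.97 and 3.90 in VTA arrays 1 to 5. Fezf2 read 7.53, 9.25, 7.07, 7.53 and 6.77 in NAC arrays 1 to 5, against 5.06, 5.02, 4.77, 5.05 and 5.00 in VTA arrays 1 to 5. NAC array 2 was highest and array 5 lowest for all 3, and the Neurod6 arrays overlapped with VTA. The cortical list averaged 8.69, 9.41, 8.69, 8.74 and 7.68 in NAC arrays 1 to 5, against 7.29, 7.04, 7.04, 7.36 and 7.08 in VTA arrays 1 to 5. The pan-striatal list averaged 10.47, 10.16, 10.69, 10.88 and 11.17 in NAC and 8.16, 8.16, 8.21, 8.13 and 8.16 in VTA. The array with the highest cortical level thus had the lowest striatal level, and the reverse. The part of this in the NAC values of Slc17a7, Vip, Dlx1 and Sp8, which share those extremes, was not tested. Without NAC array 2 and VTA array 4 together, 1903 probe sets were called higher and 1505 lower, an alternative chosen after seeing the data.

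The mean of the 20 dopamine markers was 6.03, 6.24, 6.15, 6.13 and 6.09 in NAC arrays 1 to 5, against 9.16, 8.46, 8.34, 7.78 and 8.08 in VTA arrays 1 to 5. The 9 thalamic and subthalamic markers averaged 6.78, 6.89, 6.85, 6.72 and 6.45 in NAC and 8.46, 8.36, 8.52, 9.22 and 9.02 in VTA. The 9 ependymal and choroid plexus markers averaged 6.08, 6.14, 6.02, 6.20 and 6.20 in NAC and 5.98, 5.89, 5.82, 7.25 and 5.98 in VTA. Array 4 of the VTA was thus lowest for dopamine and highest for thalamic and ependymal markers. Foxj1, the factor of ciliated cells, read 7.42 there and 6.24 to 6.28 in the other VTA arrays. The 9 markers of midbrain GABA and raphe neurons averaged 5.52 to 5.87 in NAC, against 7.41 in VTA array 2 and 6.10 to 6.63 in the other VTA arrays. In that list Glra1, Gata3 and Tal1 were called lower in NAC, and Six3 was called higher. Of 11 hypothalamic markers 1, Pmch, was lower in NAC and 0 higher; on dimmer probe sets Sim1 (−4.30), Lhx9 (−3.91 to −4.06) and Hdc were lower too.

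**Figure D4:**
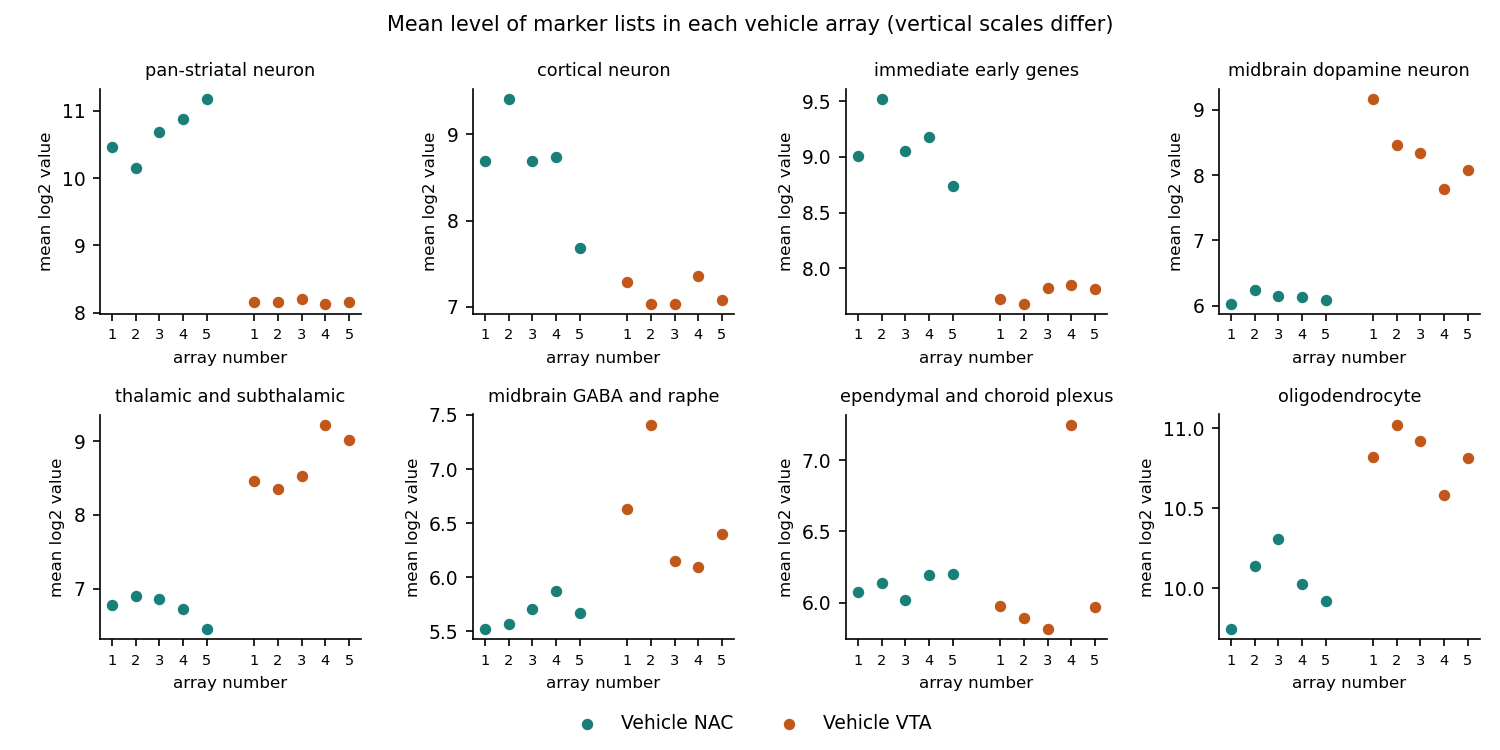
Mean RMA value (log2) of 8 marker lists in each vehicle array, NAC arrays 1 to 5 on the left and VTA arrays 1 to 5 on the right of each panel; vertical scales differ. Within NAC, array 2 is highest for cortical markers and immediate early genes (9.41 and 9.52) and lowest for striatal markers (10.16); within VTA, array 4 is lowest for dopamine markers (7.78) and highest for ependymal markers (7.25).

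Among glial genes, Agt, the angiotensin precursor made by astrocytes, read 6.48, 6.56, 6.28, 6.43 and 6.64 in NAC arrays 1 to 5, against 10.12, 9.75, 9.67, 10.23 and 9.80 in VTA arrays 1 to 5. It was lower, at −3.44 (SE 0.11, adjusted p = 5.8e-10), and with Agtr2 both a ligand and a receptor gene of angiotensin were lower in NAC. Slc6a11, a GABA transporter of astrocytes, and Aqp4, the astrocyte water channel, were lower, at −1.69 (SE 0.12, adjusted p = 2.45e-07) and −1.50 (SE 0.13, adjusted p = 1.2e-06). Of 15 oligodendrocyte markers 4 were called lower and 0 higher, and 14 were lower at any size. Of 15 microglia markers 1 was called higher and 12 were higher at any size. None of 15 endothelial and mural markers was called, and 11 were lower at any size. Over all genes the shares at any size were 25.7% higher and 28.3% lower. Of 9 meningeal markers 3 were lower, Col3a1, Dcn and Ptgds. Medians over probe sets were under the limit on size for Aqp4 (−0.65), Slc6a11 (−0.95), Col3a1 (−0.57) and Dcn (−0.96). The share of the regional differences that follows from cell makeup was not tested.

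The same contrast in mice given modafinil uses other arrays, 5 per region. Of the 1800 probe sets called higher in vehicle NAC, 1388 (77.1%) were called higher there too and 1795 had the same sign; of the 1353 called lower, 913 (67.5%) were called and 1350 had the same sign. Over the same 2 sets the median difference was 1.30 in modafinil arrays and 1.39 in vehicle arrays for the first, and −1.16 and −1.33 for the second. In modafinil arrays 3.61% and 2.44% of all probe sets were called higher and lower. Slc6a3 differed by −3.50 in modafinil arrays and −5.25 in vehicle arrays, Slc18a2 by −4.52 and −5.87, Th by −1.22 and −2.56, and Gch1 by −0.44 and −2.18. The interaction test of that change gave adjusted p = 0.407, 0.519, 0.517 and 0.32, so none of the 4 was shown to differ. Over all probe sets 2 (0.00444%) passed that test, 1 each of Npas2 and Rgs16, and 3887 had an unadjusted p under 0.05. The Npas2 probe set differed by 1.31 in modafinil and 2.18 in vehicle arrays, and that of Rgs16 by −2.69 and −0.86. These are not the brightest probe sets of the 2 genes, whose interaction adjusted p was 0.6 and 0.213.

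**Figure D5:**
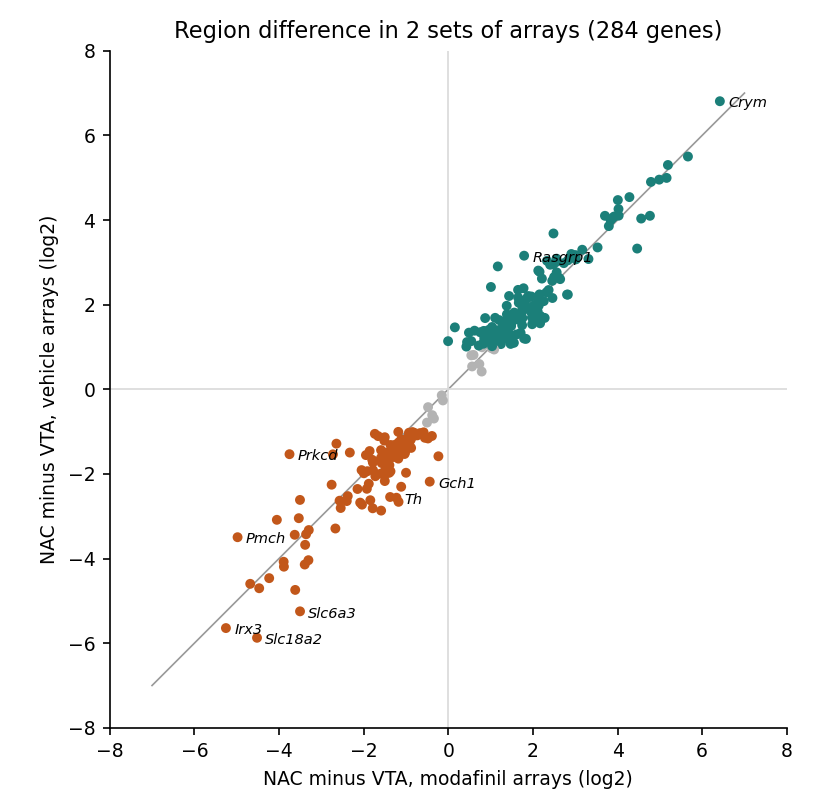
NAC minus VTA difference (log2) of the 284 genes chosen by the naming rule, in vehicle arrays (vertical) and in modafinil arrays (horizontal); green points were called higher and orange points lower in vehicle NAC, grey points neither, and the line is equality. Of the dopamine genes, Slc6a3 lies at −3.50 and −5.25 and Gch1 at −0.44 and −2.18, nearer to 0 on the modafinil axis, and Pmch at −4.98 and −3.50 farther from it.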

How the data were processed

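Per the submitters' processing notes the deposited log2 values were computed by the authors with RMA (version not given in the sources used here); the 36 arrays were deposited as 1 table, and the range of values fits a log2 scale. The 10 vehicle NAC and VTA arrays were fitted by limma 3.58.1 (lmFit, then eBayes) under R 4.3.3, without block or filter, on 45037 probe sets (64 controls left out). P-values were adjusted by the Benjamini-Hochberg method. The modafinil arrays were fitted alone, and with the vehicle arrays for the interaction. Arrays have no read depth; their number limits the precision.

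GEO's platform annotation gave 1 symbol to 34945 probe sets, several to 932 and none to 9160; 34741 were matched to current symbols by Entrez identifier. Of 9010 genes with 2 or more probe sets, 8 had calls in opposite directions, none of them named. Genes named were the 15 largest differences per direction, up to 4 per direction and list, the smallest p where a list had no call, and a fixed set of 18. Members and the 98 lists were chosen with earlier results of these data known. Drd3, Drd4, Chrm3, Oprm1, Oprl1, Gria1, Gria4, Slc6a4, Tph2 and Fos fall outside this rule, as do list members given without a value or for a dimmer probe set, and were picked after their values were seen. On simulated arrays, 200 of 45037 probe sets were changed by 0.5, 1 or 2 and tested at adjusted p under 0.05, without the limit on size. Of these 62%, 98% and 98.5% were recovered, and 6.06%, 4.39% and 4.37% of those passing were unchanged probe sets. In the real arrays 30.6% and 23.9% of probe sets passed that threshold, so these rates do not describe the calls with the limit on size. No 2 arrays were identical. Promoter windows are RefSeq's, matched by symbol for 14452 genes, and were searched on both strands with pandas 2.3.3.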

Additional observations from a re-analysis of the deposited data

Results flagged for a closer look

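In 43 of 568 groups of 5 arrays, 1 array stood apart from the other 4 by the gap test of Dixon, where chance gives about 1 in 20, or 28.4. The arrays most often apart were NAC 2 with 13 and VTA 4 with 10. Values are log2, with the nearest array in brackets. NAC array 2 stood high for Cacna1g 8.38 (nearest 7.36), Calb2 9.19 (nearest 7.97), Hcrtr1 4.29 (nearest 4.04), Slit1 8.79 (nearest 7.96) and Sp8 7.43 (nearest 5.25), and low for Cdh7 8.25 (nearest 9.07), Clic6 7.24 (nearest 8.52), Gpr158 7.35 (nearest 8.08), Mchr1 8.81 (nearest 9.21), Pdyn 8.31 (nearest 9.32), Rxrg 8.75 (nearest 9.10), Ryr1 8.12 (nearest 8.78) and Slc32a1 9.39 (nearest 10.15). NAC array 5 stood high for Cdh17 3.87 (nearest 3.55) and Chrna6 6.33 (nearest 5.99), and low for Nkx2-2 5.80 (nearest 6.26), Rgs16 6.72 (nearest 6.98) and Slc17a6 5.87 (nearest 8.05). NAC array 1 stood low for P2rx5 4.94 (nearest 5.43) and Rasgrp1 11.37 (nearest 11.88). NAC array 3 stood high for Nkx6-2 7.31 (nearest 6.91). NAC array 4 stood high for Trpm6 6.54 (nearest 6.36). VTA array 4 stood high for Foxj1 7.42 (nearest 6.28), Gabbr1 12.29 (nearest 11.49), Otx2 8.92 (nearest 7.93), Slc17a7 5.86 (nearest 5.13), Sstr4 9.30 (nearest 7.42) and Syt9 10.27 (nearest 8.85), and low for Gpr101 8.18 (nearest 8.57), Pde1b 8.99 (nearest 9.17), Penk 8.80 (nearest 9.77) and Scn4b 8.07 (nearest 9.36). VTA array 2 stood high for Emx2 6.70 (nearest 5.99), Foxd2 7.92 (nearest 6.80), Htr1d 7.09 (nearest 6.03) and Vip 7.29 (nearest 6.20), and low for Adcyap1 8.85 (nearest 9.58), Gria2 10.47 (nearest 10.65) and Rasgrp1 7.24 (nearest 8.76). VTA array 3 stood high for Nr2e1 6.09 (nearest 5.54), and low for Fezf2 4.77 (nearest 5.00). VTA array 1 stood high for Chrm4 5.35 (nearest 5.14). VTA array 5 stood high for Kcnab1 9.43 (nearest 9.10).

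The regional difference of 2 probe sets passed the interaction test of modafinil against vehicle mice. For Npas2 the change in NAC minus VTA was −0.87 (SE 0.13, adjusted p = 0.0224), with means of 7.07 in NAC and 5.76 in VTA after modafinil and 7.37 and 5.19 after vehicle. For Rgs16 the change was −1.83 (SE 0.27, adjusted p = 0.0224), with 5.61 in NAC and 8.30 in VTA after modafinil and 5.76 and 6.62 after vehicle.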

How the results depend on the processing

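Counts of calls stayed within 1.5 times the reported ones under quantile normalization, other variance models, array weights, a fit of all 20 NAC and VTA arrays, the median over probe sets and each left-out array. Left-out arrays gave 1760 to 1859 probe sets higher and 1264 to 1445 lower by 1 or more. Keeping probe sets above the 40th percentile, which tests fewer, left 7762 higher at any size, 1182 and 867 higher and lower by 1 or more, and 19 transcription factors lower. With the replicate number as a block 1801 probe sets were higher and 1358 lower by 1 or more, and no count moved by over 1.5 times. Of the genes named, Gad1 and Cnr1 alone no longer had an adjusted p under 0.05 in that fit. As deviations from the group means, same-numbered arrays correlated at 0.051, 0.064, 0.204, 0.012 and 0.033. All were positive, and 0.204 was the largest of any NAC and VTA pair. Other pairs ran from −0.128 to 0.108, the highest being NAC array 1 with VTA array 3. The labels do not say that equal numbers are the same mouse, so the main fit used no block. Whether the numbers are pairs cannot be told from these values. Directions turned for 3 genes. The median over probe sets gave Bcas1 0.26 (reported −1.09), Syt2 0.16 (−2.23) and Gabbr1 0.062; Gabbr1, not called (−0.14), ranged over left-out arrays from −0.21 (without VTA array 3) to 0.036 (without VTA array 4), and was 0.047 without NAC array 2 and VTA array 4; the cause was not tested. Of 270 genes called among those the naming rule chose, 48 lost the call under that median, 40 of them by size alone, and 59 moved by over 1.5 times; Bcas1, Syt2, Chrna3, Crem, Kcnc1, Kcnj5, Pou4f1 and Slc12a2 lost the adjusted p. Leaving out NAC arrays 1 to 5 ended 5, 7, 3, 3 and 11 of the 270 calls, and VTA arrays 1 to 5 ended 2, 9, 1, 9 and 6, mostly by size; Ntng2 and Sp8 lost the adjusted p. Quantile normalization ended 6 calls, array weights 3, trend and robust estimation 1, and the block and the fit of 20 arrays 0; under the 40th percentile filter 225 of the 270 were tested and 0 lost. Slc32a1 passed adjusted p 0.05 in 6 settings. Quantile normalization gave a median difference over all probe sets of −1e-04, against 0.0395 as deposited. Dim probe sets limit the size of differences for genes near the 5th percentile.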
